A study of Mus musculus with 9 samples.

Results

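A set of 10 genes of the liver X receptor (LXR) pathway and of cholesterol efflux were followed in sorted macrophages of the mouse lung. They were chosen by name out of 24346 gene symbols. They comprise the receptors Nr1h2 (LXRβ) and Nr1h3 (LXRα), the cholesterol exporters Abca1 and Abcg1, the secreted lipoprotein genes Apoe, Apoc2 and Pltp, the membrane enzyme Lpcat3, the ubiquitin ligase Mylip and the endocytic receptor Lrp1. All samples came from female C57BL/6 mice at postnatal week 10, and the lungs were not perfused. In tumor mice, Lewis lung carcinoma (LLC) cells that express the red fluorescent protein tdTomato, a transplanted line and not a tumor arising in the lung, had been injected with Matrigel into the left lung. Controls were given vehicle. Among CD45+ autofluorescent cells, alveolar macrophages (AMs) were sorted as Siglec-F+ and tumor-associated macrophages (TAMs) as Siglec-F-, F4/80+ and CD11b+. The 3 groups of 3 samples were control AMs (Ctrl-AM), AMs from tumor mice (Tumor-AM) and TAMs (labelled Tumor-macrophage). Control and tumor mice were bred separately, so breeding and tumor cannot be told apart. Each population came from 3 mice, and it was not stated whether Tumor-AM and TAMs were sorted from the same animals.

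LXRs are nuclear receptors that sense oxysterols, oxidized forms of cholesterol. They bind DNA with a retinoid X receptor (RXR) as partner, and with a ligand they switch from repressing to activating genes that move cholesterol out of the cell. The AM takes up and breaks down pulmonary surfactant, a lipid film rich in phospholipids and cholesterol, and it depends on cholesterol export to avoid becoming a foam cell.

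The values are FPKM, read numbers divided by transcript length and by the mapped reads of the library, so levels of different genes can be compared. Summed FPKM ran from 635560 to 785745 per sample, and depth was estimated from the low values at about 10052200 to 12654300 reads, similar in all groups. The 9 AM marker genes summed to 26520 to 32065 FPKM in Ctrl-AM, against 23326 to 40138 in Tumor-AM and 1201 to 1428 in TAMs, and Siglecf, the gene of the sorting marker, was at most 0.835 FPKM in Tumor-macrophage. Of the 9, 1 (Fabp5) was higher in TAMs. Adgre1, the gene of F4/80, was at 321 to 442 FPKM in TAMs and 115 to 145 in AMs. The populations therefore carried the markers of their labels. In bulk samples, a lower share of cells that express a gene and less of its RNA per cell cannot be told apart.

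In Tumor-macrophage against Tumor-AM, 4 of the 10 genes rose (Apoe, Apoc2, Pltp and Abca1) and 3 fell (Abcg1, Lpcat3 and Lrp1), with a median log2 change of 0.23 against 0.0012 over all genes tested. Among the 10686 genes tested, 24.2% rose and 24.4% fell in this comparison. In Tumor-AM against Ctrl-AM, Apoe and Apoc2 rose and 0 of the 10 genes fell, against 7.11% of all genes higher and 3.18% lower, and the median change of the 10 genes was -0.12 against 0.014 over all genes. In Tumor-macrophage against Ctrl-AM, the same 4 genes and Nr1h3 rose and the same 3 genes fell, against 27.7% and 27.1% of all genes, with a median of 0.17 against -0.0082. Calls are those of limma on log2(FPKM + 1), with a Benjamini-Hochberg adjusted p under 0.05 over all genes tested, and adding 1 before the log shrinks the change of a low gene. The comparisons share samples, so they are not independent of each other.

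**Figure D1:**
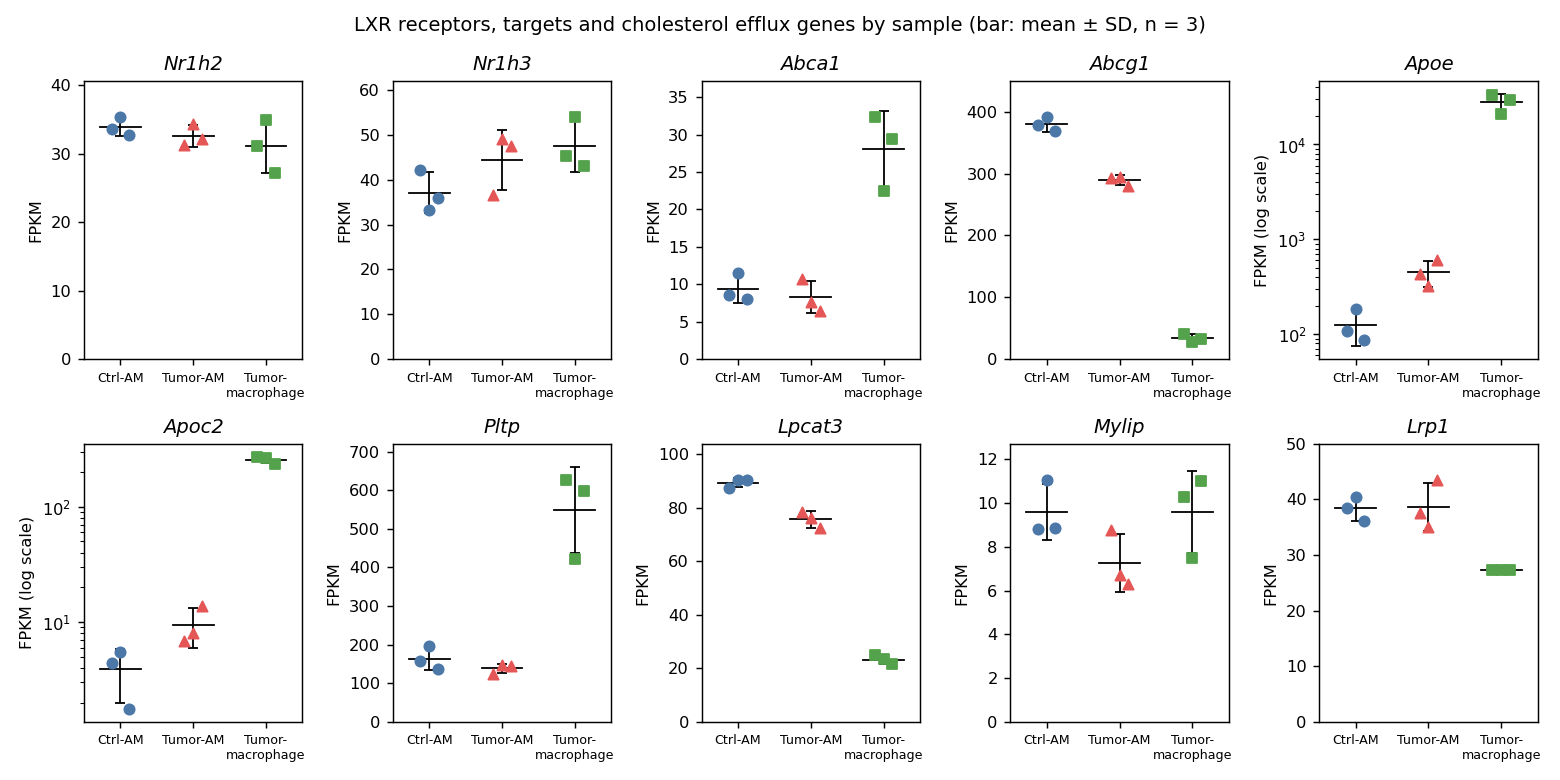
FPKM of the 10 genes in each of the 9 samples, with the group mean and SD (n = 3). The y axis is linear from 0 except for Apoe and Apoc2, where it is logarithmic. Abca1, Apoe, Apoc2 and Pltp were highest in all 3 Tumor-macrophage samples, and Abcg1, Lpcat3 and Lrp1 were lowest there.

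The scale of the comparison matters for small changes. When FPKM were rescaled to the same sum in every sample (TPM), the median of all genes moved to -0.11 in Tumor-AM against Ctrl-AM, -0.085 in Tumor-macrophage against Tumor-AM and -0.22 in Tumor-macrophage against Ctrl-AM. The genes called in Tumor-AM against Ctrl-AM were then 475 higher and 824 lower, compared with 760 higher and 340 lower on FPKM, and quantile normalization gave 607 higher and 446 lower. In Tumor-macrophage against Ctrl-AM, TPM gave 2130 higher and 4409 lower, compared with 2960 and 2900 on FPKM. For the 7 genes called in Tumor-macrophage against Tumor-AM, the calls and directions were the same on TPM. In Tumor-AM against Ctrl-AM, Apoe and Apoc2 were called on TPM too, and Abcg1 and Lpcat3 were then called as lower.

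**Figure D2:**
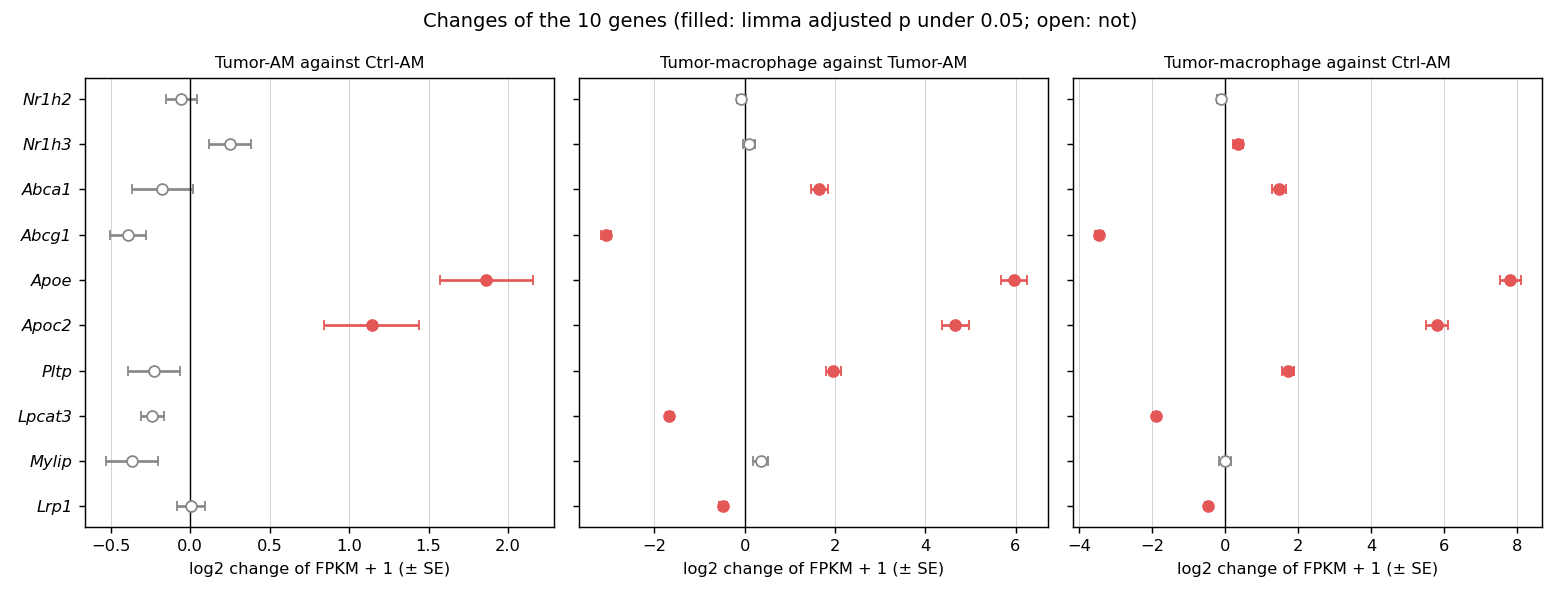
Log2 change of FPKM + 1 with its standard error for the 10 genes in the 3 comparisons, as differences from 0 on the x axis, with a scale of its own in each panel. Filled points passed limma's adjusted p of 0.05. Apoe had the highest change in all 3 panels, from 1.86 in Tumor-AM against Ctrl-AM to 7.82 in Tumor-macrophage against Ctrl-AM, and Abcg1 the lowest.

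The receptors were expressed at similar levels in all 3 populations. Nr1h2, the LXR found in most tissues (chromosome 7, 44549616 to 44553951 of GRCm38, minus strand), was at 33.6, 35.3 and 32.8 FPKM in Ctrl-AM, against 31.2, 34.4 and 32.2 in Tumor-AM and 31.1, 35.0 and 27.2 in TAMs. These ranges overlapped. Its log2 change was -0.06 ± 0.09 (SE) in Tumor-AM against Ctrl-AM (limma adjusted p = 0.78) and -0.07 ± 0.09 in Tumor-macrophage against Tumor-AM (limma adjusted p = 0.56), and neither passed the test. Against Ctrl-AM the change in Tumor-macrophage was -0.13 (limma adjusted p = 0.28), and of the alternatives run it passed the test only on TPM (-0.36, limma adjusted p = 0.012), where the median of all genes was at -0.22.

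Nr1h3, the LXR typical of macrophages and liver (chromosome 2, 91184061 to 91202834, minus strand), had 42.2, 33.3 and 35.8 FPKM in Ctrl-AM, against 36.6, 49.1 and 47.5 in Tumor-AM and 45.4, 53.9 and 43.0 in TAMs. All Tumor-macrophage samples were above the Ctrl-AM samples, and Tumor-AM overlapped both. Neither step between neighbouring groups passed the test (0.25 ± 0.13, limma adjusted p = 0.29, then 0.10 ± 0.13, limma adjusted p = 0.57). The difference of 0.35 ± 0.13 between Tumor-macrophage and Ctrl-AM did (limma adjusted p = 0.048), at the edge of the threshold. That call was lost on TPM (0.12, limma adjusted p = 0.47), with a pseudocount of 0.1, with no filter on low values, with quantile normalization and with a constant prior variance. It was also lost without Ctrl-AM 2, Ctrl-AM 3, Tumor-AM 3, Tumor-macrophage 1 or Tumor-macrophage 2, where the change ran from 0.25 to 0.37. Nr1h3 made up 52.1 ± 3.60% of the summed FPKM of both receptors in Ctrl-AM, against 57.5 ± 3.06% in Tumor-AM and 60.4 ± 0.957% in TAMs (SD, n = 3).

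The 2 exporters moved in opposite directions between AMs and TAMs. ABCA1 loads cholesterol and phospholipid onto lipid-poor apolipoproteins, and ABCG1 passes cholesterol to formed lipoprotein particles. Abca1 (chromosome 4, 53030787 to 53159895, minus strand) was at 8.61, 11.6 and 8.09 FPKM in Ctrl-AM, against 10.7, 7.67 and 6.48 in Tumor-AM and 32.3, 22.4 and 29.5 in TAMs. Its levels overlapped between both kinds of AM and were higher in every TAM sample. Mean Abca1 was 3.38-fold higher in TAMs than in Tumor-AM (1.66 ± 0.19 on the log2 scale, limma adjusted p = 4.0e-05), while the change in Tumor-AM against Ctrl-AM was -0.18 (limma adjusted p = 0.64).

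Abcg1 (chromosome 17, 31057675 to 31117988, plus strand) was at 379, 391 and 368 FPKM in Ctrl-AM, against 293, 295 and 280 in Tumor-AM and 40.8, 28.2 and 32.2 in TAMs. None of the 3 ranges overlapped, and they lay in a falling order from Ctrl-AM over Tumor-AM to Tumor-macrophage. Its mean was 8.57-fold higher in Tumor-AM than in Tumor-macrophage (log2 change -3.08 ± 0.11 in Tumor-macrophage against Tumor-AM, limma adjusted p = 6.0e-09). In Tumor-AM against Ctrl-AM the change was -0.39 ± 0.11 and missed the threshold (limma adjusted p = 0.051). It passed in a fit of both AM groups alone (limma adjusted p = 0.0063), on TPM (limma adjusted p = 0.012), with quantile normalization (limma adjusted p = 0.046), with a minimum of 5 FPKM (limma adjusted p = 0.044) and without Tumor-macrophage 1 (limma adjusted p = 0.0082) or Tumor-macrophage 2 (limma adjusted p = 0.018).

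The balance of the exporters differed accordingly. Abcg1 was 44.1, 33.8 and 45.5 times the FPKM of Abca1 in Ctrl-AM and 27.3, 38.5 and 43.1 times in Tumor-AM, but 1.26, 1.26 and 1.09 times in Tumor-macrophage. Abcg1 was thus the predominant transcript of the pair in AMs, and both had nearly equal levels in TAMs. Their sum was 389 ± 13.2 FPKM in Ctrl-AM, against 298 ± 9.99 in Tumor-AM and 61.8 ± 11.2 in TAMs (SD, n = 3).

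LXR and RXR bind direct repeats of the 6-base site AGGTCA that are spaced by 4 bases. Such a repeat was searched on both strands in the 250 bases before each RefSeq gene start (GRCm38.p6), where 9 of the 10 genes had an entry, with 12 promoters in all. With at most 2 mismatches in the 12 fixed bases, 0 of these 12 promoters held a match, compared with 2.57% of 32851 promoters. With 3 mismatches, a setting added after that result was seen, the Abca1 promoter alone held one (chr4:53159947-53159962, 67 to 52 bases before the start, on the strand opposite to the gene), compared with 18.5% of all promoters. Single exact 6-base sites were in 14.0% of all promoters and in that of Apoc2 among the 12. The promoters of Abca1, and of Apoe and Apoc2, the genes with the highest changes, are shown on the strand of the gene, with the repeat or 6-base site in capitals and none in Apoe (chr4:53159896-53160145, chr7:19699189-19699438 and chr7:19677942-19678191, all on the minus strand).
Abca1: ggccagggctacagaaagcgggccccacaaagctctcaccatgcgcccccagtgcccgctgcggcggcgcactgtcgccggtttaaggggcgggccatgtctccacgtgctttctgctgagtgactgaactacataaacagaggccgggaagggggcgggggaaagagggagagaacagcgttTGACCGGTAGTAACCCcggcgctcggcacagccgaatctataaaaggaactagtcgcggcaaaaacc
Apoe: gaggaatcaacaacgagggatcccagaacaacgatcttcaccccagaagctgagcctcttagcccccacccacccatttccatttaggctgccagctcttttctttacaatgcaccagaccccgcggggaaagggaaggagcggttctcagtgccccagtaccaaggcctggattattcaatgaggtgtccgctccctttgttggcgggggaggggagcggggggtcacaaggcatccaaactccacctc
Apoc2: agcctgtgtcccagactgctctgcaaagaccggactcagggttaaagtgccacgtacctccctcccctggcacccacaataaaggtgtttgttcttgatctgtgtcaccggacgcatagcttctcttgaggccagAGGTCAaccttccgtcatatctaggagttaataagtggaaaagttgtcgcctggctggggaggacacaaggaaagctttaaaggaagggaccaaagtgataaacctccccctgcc
A match describes letters only, and these windows leave out enhancers and introns.

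Among the secreted lipoprotein genes, Apoe and Apoc2 had the largest log2 changes of the 10 genes in all 3 comparisons. Apoe encodes apolipoprotein E, which macrophages secrete and which accepts the cholesterol exported by ABCA1 and ABCG1. Apoe (chromosome 7, 19696109 to 19699188, minus strand) was at 107, 184 and 86.4 FPKM in Ctrl-AM, against 429, 324 and 601 in Tumor-AM and 33190, 20709 and 29661 in TAMs. The 3 ranges were far apart. Its mean was 3.59 times the Ctrl-AM mean in Tumor-AM (1.86 ± 0.29 on the log2 scale, limma adjusted p = 0.0036) and 61.7-fold higher in TAMs than in Tumor-AM (5.96 ± 0.29, limma adjusted p = 5.8e-08).

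Apoe was among the most abundant transcripts of TAMs. It ranked 2, 4 and 2 among all genes in the Tumor-macrophage samples, where it made up 4.30%, 2.78% and 3.77% of summed FPKM. In Tumor-AM it ranked between 137 and 304, and in Ctrl-AM between 521 and 1081. The summed FPKM of the other 9 genes differed far less, at 765 ± 48.7 in Ctrl-AM, against 644 ± 15.9 in Tumor-AM and 1005 ± 113 in TAMs (SD, n = 3).

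Apoc2, the activating cofactor of lipoprotein lipase, lies near Apoe in the same cluster (19671579 to 19677941, minus strand). It was at 4.45, 5.46 and 1.76 FPKM in Ctrl-AM, against 6.87, 8.03 and 13.6 in Tumor-AM and 269, 264 and 236 in TAMs. The ranges did not overlap, and the 3 Tumor-macrophage samples were close together. Its mean was 26.9-fold higher in TAMs than in Tumor-AM (4.66 ± 0.30 on the log2 scale, limma adjusted p = 4.0e-07) and 2.45 times the Ctrl-AM mean in Tumor-AM (1.14 ± 0.30, limma adjusted p = 0.039). The change between the AM groups rested on few reads, about 16.1 to 50.2 in Ctrl-AM and 52.2 to 123 in Tumor-AM. It missed the threshold without Tumor-AM 3 (0.88, limma adjusted p = 0.12), Ctrl-AM 3 (0.77, limma adjusted p = 0.090), Ctrl-AM 1 (1.26, limma adjusted p = 0.071), Tumor-AM 2 (1.23, limma adjusted p = 0.063), Tumor-macrophage 3 (limma adjusted p = 0.054) or Tumor-macrophage 1 (limma adjusted p = 0.051). It also missed it in a fit of both AM groups alone (limma adjusted p = 0.072), with a constant prior variance (limma adjusted p = 0.055) and with no filter on low values (limma adjusted p = 0.10).

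Apoc2 shares 77.5% of its 75-base windows with an annotated readthrough transcript from Apoc4 into Apoc2, so its reads could be split. The readthrough was listed at 1.32 and 1.08 FPKM in Tumor-AM 1 and 3, at 0 in Tumor-AM 2 and in Tumor-macrophage, and below 0.0001 in Ctrl-AM. The part of such a split in the Apoc2 values was not tested.

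The genes beside Apoe moved in different directions. Apoc1, a small apolipoprotein between Apoe and Apoc4, was at 29.1, 62.5 and 28.7 FPKM in Ctrl-AM, against 29.8, 31.0 and 24.8 in Tumor-AM and 6.82, 7.81 and 5.72 in TAMs. It fell in Tumor-macrophage against Tumor-AM (-1.93 ± 0.25 on the log2 scale, limma adjusted p = 1.0e-04). Apoc4 was listed at 0 in all Ctrl-AM samples and in Tumor-AM 1 and 3, at 0.257 in Tumor-AM 2, and at 8.98, 3.67 and 5.95 in Tumor-macrophage, where it rose against Tumor-AM (limma adjusted p = 4.9e-06). Within a sample, Apoe was 2.95 to 3.69 times the FPKM of Apoc1 in Ctrl-AM, 10.5 to 24.3 times in Tumor-AM and 2650 to 5182 times in Tumor-macrophage. Of 5 listed genes that flank the cluster, 4 were tested. In Tumor-macrophage against Tumor-AM, 1 of the 4 rose and 1 fell, near the 24.2% and 24.4% of all genes. Relb, a subunit of NF-κB, rose (1.17 ± 0.16, limma adjusted p = 0.00014), and Bcam, an adhesion molecule, fell (-2.23 ± 0.16, limma adjusted p = 9.9e-07). Clptm1 was at 47.0 to 52.2 FPKM in Tumor-AM and 55.1 to 57.3 in TAMs, and did not pass the test. Tomm40, a mitochondrial import channel next to Apoe, was at 32.7 to 34.7 FPKM in Tumor-AM and 29.8 to 40.0 in TAMs (0.01, limma adjusted p = 0.96).

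**Figure D3:**
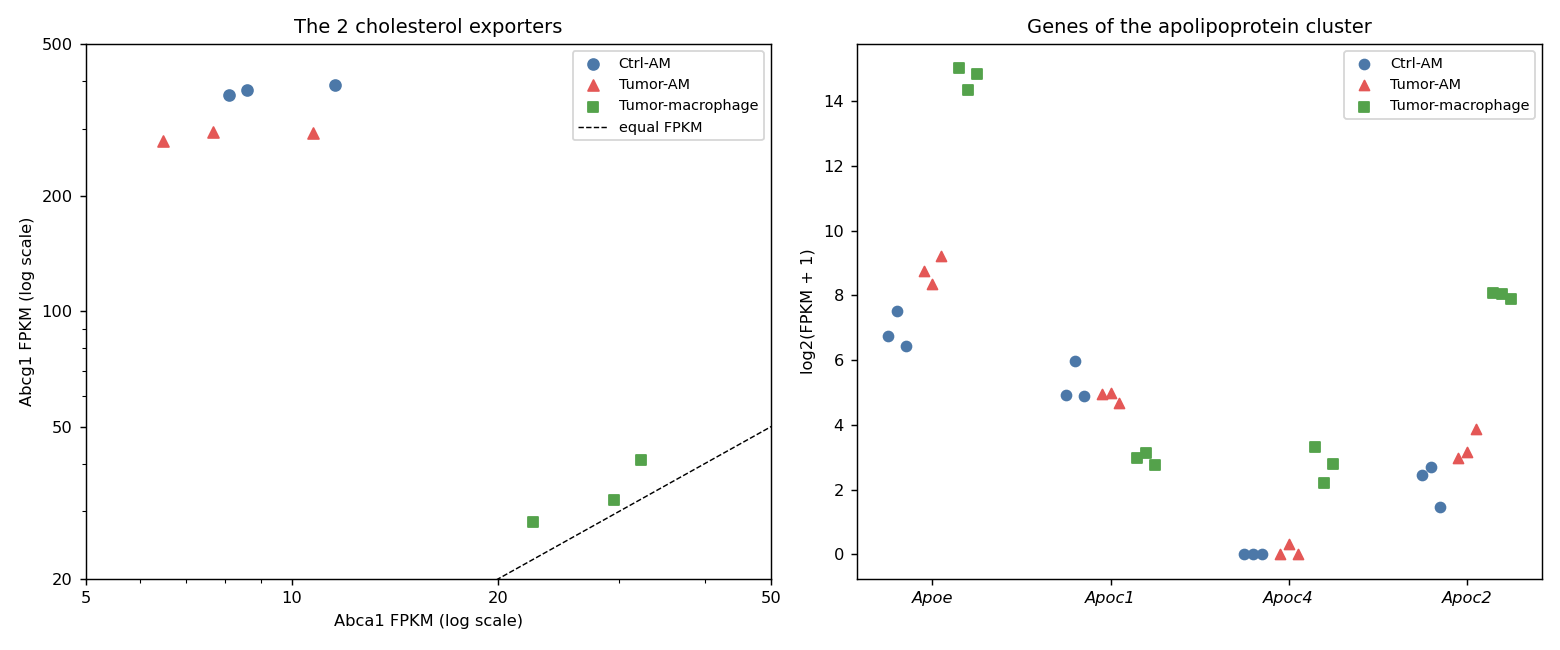
Left, Abcg1 against Abca1 FPKM in each sample, both axes logarithmic, with a dashed line of equal FPKM. The AM samples lie far above the line and the 3 Tumor-macrophage samples just above it, at ratios of 1.09 to 1.26. Right, log2(FPKM + 1) of Apoe, Apoc1, Apoc4 and Apoc2 in each sample, where Apoe, Apoc4 and Apoc2 are highest and Apoc1 lowest in Tumor-macrophage.

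Pltp encodes phospholipid transfer protein, which remodels lipoprotein particles outside the cell. Pltp (chromosome 2, 164839518 to 164857711, minus strand) was at 156, 198 and 137 FPKM in Ctrl-AM, against 124, 147 and 143 in Tumor-AM and 627, 422 and 597 in TAMs. Every TAM sample was above every AM sample, and the AM groups overlapped. Its mean was 3.97-fold higher in TAMs than in Tumor-AM (1.96 ± 0.16 on the log2 scale, limma adjusted p = 3.0e-06), and the change in Tumor-AM against Ctrl-AM was -0.23 (limma adjusted p = 0.44). Of its 75-base windows, 8.17% lie antisense to Ctsa, which encodes a lysosomal protease. Ctsa was at 491 to 541 FPKM in Tumor-AM and 568 to 648 in TAMs.

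LPCAT3 puts polyunsaturated fatty acids into membrane phospholipids and is a known LXR target. Lpcat3 (chromosome 6, 124663027 to 124704418, plus strand) was at 87.4, 90.2 and 90.3 FPKM in Ctrl-AM, against 78.4, 76.0 and 72.3 in Tumor-AM and 24.8, 23.4 and 21.4 in TAMs. As with Abcg1, the 3 ranges did not overlap and lay in falling order. Its mean was 3.26-fold higher in Tumor-AM than in Tumor-macrophage (log2 change -1.66 ± 0.07 in Tumor-macrophage against Tumor-AM, limma adjusted p = 2.5e-08). The change of -0.24 ± 0.07 in Tumor-AM against Ctrl-AM missed the threshold (limma adjusted p = 0.067) and passed it in the fit of both AM groups alone (limma adjusted p = 0.041), on TPM (limma adjusted p = 0.019) and with quantile normalization (limma adjusted p = 0.039). Of its 75-base windows, 7.49% lie antisense to Emg1, a ribosome assembly gene at 52.7 to 64.0 FPKM in Tumor-AM and 44.0 to 58.0 in TAMs.

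Mylip encodes IDOL, a ubiquitin ligase that LXR induces and that limits lipoprotein uptake. Mylip (chromosome 13, 45389742 to 45412022, plus strand) was at 8.83, 11.1 and 8.85 FPKM in Ctrl-AM, against 8.75, 6.69 and 6.29 in Tumor-AM and 10.3, 7.47 and 11.0 in TAMs. The Ctrl-AM samples lay just above the Tumor-AM samples, and the range of Tumor-macrophage overlapped both. None of its changes passed the test (-0.36 ± 0.16, limma adjusted p = 0.20 in Tumor-AM against Ctrl-AM, and 0.36 ± 0.16, limma adjusted p = 0.095 in Tumor-macrophage against Tumor-AM). Against Ctrl-AM, Tumor-macrophage differed by -0.01 (limma adjusted p = 0.98). The change against Tumor-AM passed without Tumor-AM 1 (0.48, limma adjusted p = 0.041) or without Tumor-macrophage 2 (0.51, limma adjusted p = 0.021).

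LRP1 takes up APOE-bearing remnants and many other ligands. Lrp1 (chromosome 10, 127538161 to 127621148, minus strand) was at 38.5, 40.5 and 36.1 FPKM in Ctrl-AM, against 37.5, 35.0 and 43.5 in Tumor-AM and 27.3, 27.2 and 27.3 in TAMs. The AM groups overlapped and the TAM samples were all lower. It fell in Tumor-macrophage against Tumor-AM by a log2 change of -0.48 ± 0.09 (limma adjusted p = 0.0010). Its change in Tumor-AM against Ctrl-AM was 0.01 (limma adjusted p = 0.98) and changed sign on TPM (-0.13, limma adjusted p = 0.37).

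Most tested genes of nuclear receptor partners and corepressors fell in TAMs. Of 8 listed genes of RXRs, PPARs and corepressors, 6 were tested. Among them, 5 fell and 0 rose in Tumor-macrophage against Tumor-AM, with a median log2 change of -0.73. The corepressor Ncor1 was at 14.7, 15.0 and 15.7 FPKM in Tumor-AM and 14.9, 11.9 and 14.1 in TAMs, with overlap (-0.15 ± 0.10, limma adjusted p = 0.25). Rxra, a partner of LXR, was at 24.2, 24.1 and 23.3 FPKM in Tumor-AM and 11.9, 9.62 and 7.09 in TAMs (-1.27 ± 0.16, limma adjusted p = 7.4e-05). Its relative Rxrb was at 14.2, 15.0 and 13.6 FPKM in Tumor-AM and 10.3, 11.9 and 11.4 in TAMs (-0.32 ± 0.10, limma adjusted p = 0.018). Both ranges lay lower in TAMs, without overlap. Pparg, the nuclear receptor that AM identity depends on, was at 185, 206 and 216 FPKM in Ctrl-AM, against 144, 135 and 140 in Tumor-AM and 12.8, 12.1 and 10.5 in TAMs, without overlap. It was the 1 gene of the list that changed in Tumor-AM against Ctrl-AM (-0.53 ± 0.09, limma adjusted p = 0.0046), and it fell further in Tumor-macrophage against Tumor-AM (-3.46 ± 0.09, limma adjusted p = 4.6e-10).

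Enzymes that make or remove sterol ligands of LXR changed in both directions. Of 8 listed, 6 were tested, of which 2 rose and 1 fell in Tumor-AM against Ctrl-AM, and 1 rose and 4 fell in Tumor-macrophage against Tumor-AM. Over all genes, 7.11% rose and 3.18% fell in the former comparison, and 24.2% rose and 24.4% fell in the latter. Ch25h, which makes 25-hydroxycholesterol, was at 41.3, 27.9 and 30.1 FPKM in Ctrl-AM and 9.52, 13.8 and 11.3 in Tumor-AM (-1.44 ± 0.39, limma adjusted p = 0.044). Cyp27a1, which makes 27-hydroxycholesterol, was at 5.86, 2.56 and 6.55 FPKM in Tumor-AM and 42.0, 17.6 and 36.6 in TAMs (2.45 ± 0.33, limma adjusted p = 0.00012). The cholesterol synthesis enzyme Cyp51 was at 21.5, 17.4 and 23.1 FPKM in Ctrl-AM, against 42.8, 47.5 and 45.0 in Tumor-AM and 16.8, 17.6 and 15.2 in TAMs. Cyp51 thus rose in Tumor-AM against Ctrl-AM (1.10 ± 0.11, limma adjusted p = 0.00035) and was lower in TAMs than in Tumor-AM (-1.40 ± 0.11, limma adjusted p = 1.7e-06). Hsd3b7, a bile acid enzyme that clears oxysterols, fell in Tumor-macrophage against Tumor-AM (-1.61 ± 0.10, limma adjusted p = 2.2e-07), as did Sult2b1, a sterol sulfotransferase (-1.96 ± 0.22, limma adjusted p = 3.4e-05).

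More of the further LXR target genes fell than rose in TAMs. Of 16 listed, 13 were tested. In Tumor-macrophage against Tumor-AM, 3 rose (Apoc4, Arl4c and Rnf145) and 8 fell, compared with 24.2% and 24.4% of all genes. The median of the 13 changes was -0.46 on the log2 scale. The falls of Srebf1, Scd2, Fasn, Tgm2 and Abca7 were smaller than 2-fold. Arl4c, a small GTPase linked to ABCA1 transport, was at 2.05, 0.976 and 1.65 FPKM in Tumor-AM and 14.9, 11.0 and 16.2 in TAMs (2.56 ± 0.19, limma adjusted p = 1.2e-06). Lpl, lipoprotein lipase, was at 847, 864 and 709 FPKM in Tumor-AM and 92.2, 59.3 and 73.1 in TAMs (-3.43 ± 0.14, limma adjusted p = 1.6e-08), opposite to its cofactor Apoc2. Mertk, a receptor for dying cells, and Srebf1, the regulator of fatty acid synthesis, also fell (-1.38 ± 0.13, limma adjusted p = 8.7e-06, and -0.83 ± 0.09, limma adjusted p = 2.1e-05). In Tumor-AM against Ctrl-AM, 7.11% of all genes rose and 3.18% fell. Of the 13, 4 rose there (Fasn, Scd2, Tgm2 and Rnf145) with changes of 0.44 to 0.56, and 0 fell. The number called in either direction was 0 on TPM, 1 with no filter and 2 with quantile normalization. It was 1 without Ctrl-AM 1, Ctrl-AM 2, Tumor-AM 1 or Tumor-AM 2 and 2 without Ctrl-AM 3 or Tumor-macrophage 3. Abcg5 was listed at 0 in every sample and Abcg8 at 0 in 8 of 9. Cd5l, a secreted macrophage protein, was listed at 0 in all AM samples and at 1.47, 0.383 and 2.89 FPKM in Tumor-macrophage, below the minimum for the test.

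**Figure D4:**
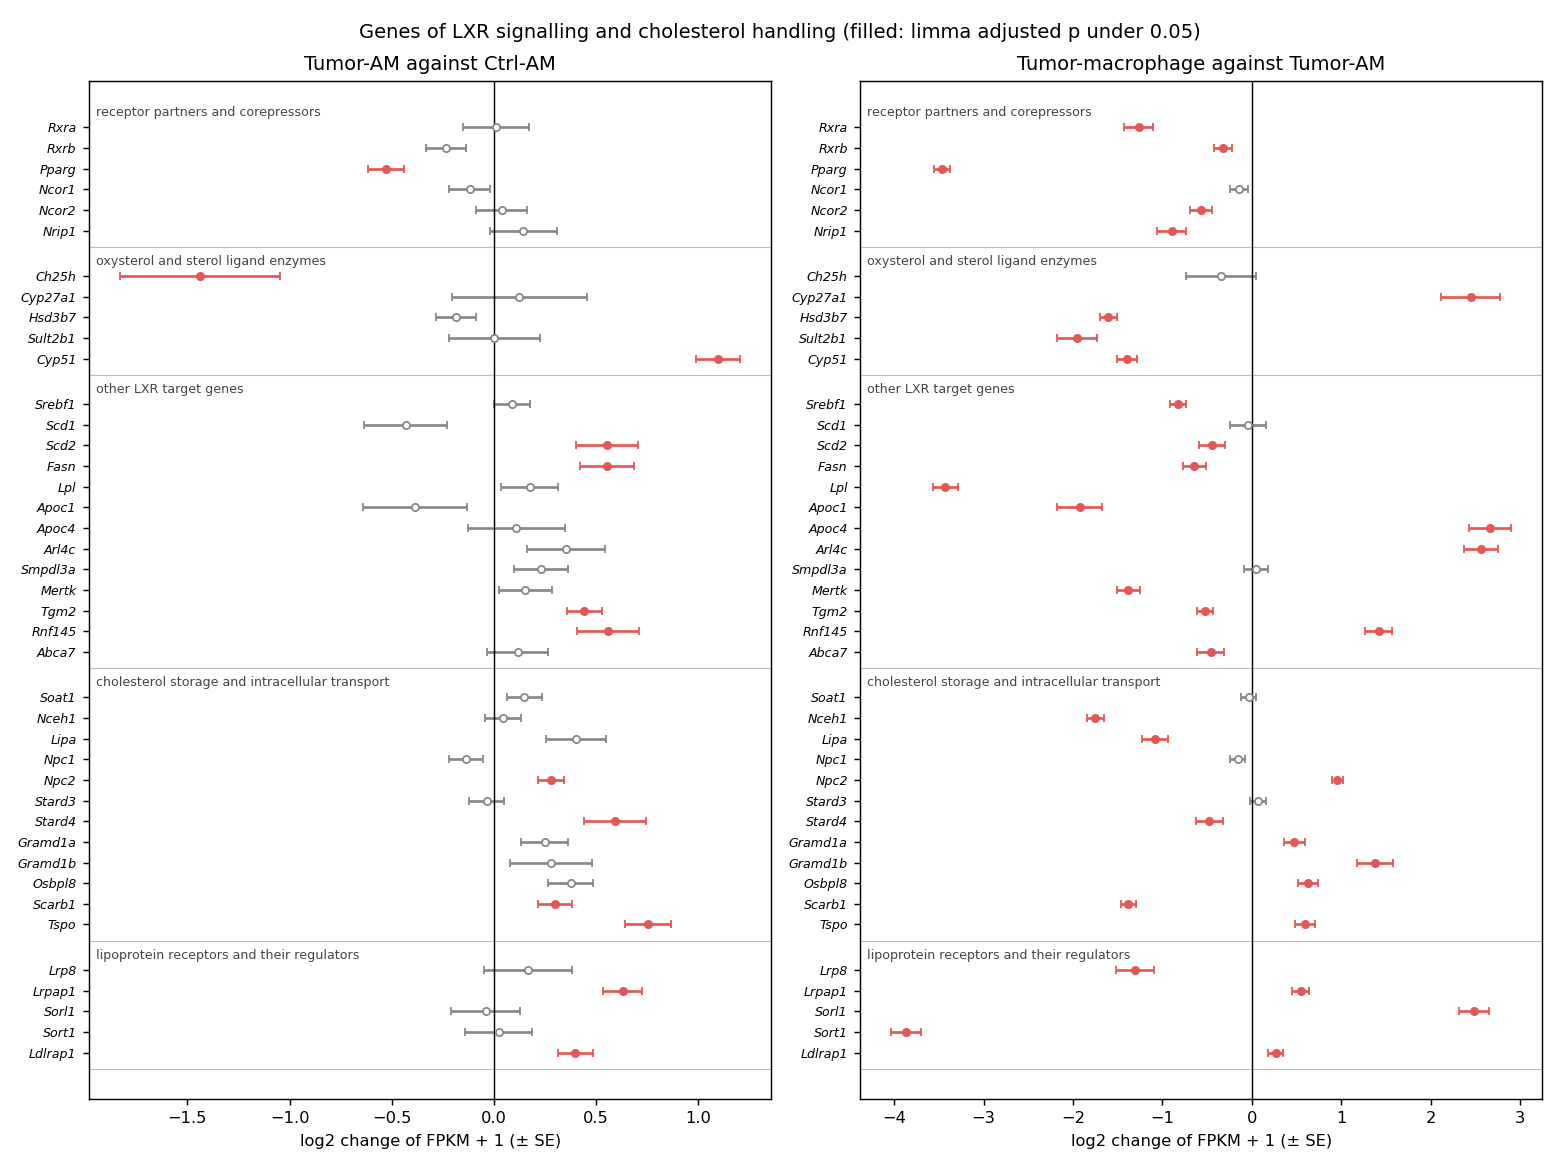
Log2 change of FPKM + 1 with its standard error for genes tested from 5 lists, in Tumor-AM against Ctrl-AM on the left and Tumor-macrophage against Tumor-AM on the right, with different x scales. Filled points passed limma's adjusted p of 0.05. On the right, Sort1, Pparg and Lpl lie lowest, at -3.87 to -3.43, and Apoc4, Arl4c, Sorl1 and Cyp27a1 highest.

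Genes of cholesterol storage and transport within the cell changed both ways in TAMs. In Tumor-macrophage against Tumor-AM, 5 of 12 tested (13 listed) were higher and 4 lower, with a median of 0.02, compared with 24.2% and 24.4% of all genes. Npc2, which carries cholesterol in the lysosome, was at 128, 121 and 122 FPKM in Ctrl-AM, against 149, 143 and 159 in Tumor-AM and 300, 287 and 292 in TAMs. Its 3 ranges did not overlap, and it rose in both steps (0.28 ± 0.06, limma adjusted p = 0.022, and 0.96 ± 0.06, limma adjusted p = 5.5e-07). Nceh1, a cholesteryl ester hydrolase, was at 160 to 162 FPKM in Tumor-AM and 40.7 to 53.3 in TAMs (-1.75 ± 0.09, limma adjusted p = 8.0e-08), while Soat1, which makes the esters, was at 52.2 to 57.9 and 47.5 to 57.3 (-0.04, limma adjusted p = 0.75). In Tumor-AM against Ctrl-AM, where 7.11% of all genes rose and 3.18% fell, 4 of the 12 rose (Npc2, Stard4, Scarb1 and Tspo) and 0 fell. The number called in either direction was 2 on TPM, with quantile normalization, with a constant prior variance and with no filter. It was 1 without any one of the Ctrl-AM samples or Tumor-AM 1, and 2 without Tumor-AM 2 or Tumor-AM 3.

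Of 8 listed lipoprotein receptors and their regulators, 6 were tested. Among them, 3 rose and 0 fell in Tumor-AM against Ctrl-AM, compared with 7.11% and 3.18% of all genes. In Tumor-macrophage against Tumor-AM, 3 rose and 3 fell, compared with 24.2% and 24.4%. Lrpap1, the chaperone of LRP1, rose in both steps (0.63 ± 0.10, limma adjusted p = 0.0032, and 0.55 ± 0.10, limma adjusted p = 0.00082). The sorting receptors Sort1 and Sorl1 went opposite ways in Tumor-macrophage against Tumor-AM (-3.87 ± 0.16, limma adjusted p = 2.0e-08, and 2.49 ± 0.17, limma adjusted p = 5.5e-07).

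Most markers of TAMs rose in Tumor-AM against Ctrl-AM, as Apoe and Apoc2 did. Of 8 genes of monocyte-derived macrophages, 7 rose in Tumor-AM against Ctrl-AM, compared with 7.11% of all genes. The 8th, Cx3cr1, was at 0.302 to 0.523 FPKM in Ctrl-AM and 0.270 to 0.741 in Tumor-AM (limma adjusted p = 0.74), and 0 of the 8 were at 0 in every sample. The 8 summed to 337 to 405 FPKM in Ctrl-AM, against 700 to 999 in Tumor-AM and 14742 to 15567 in TAMs. Most of that sum in AMs was Cd14, at 313 to 375 FPKM in Ctrl-AM and 629 to 869 in Tumor-AM. In TAMs, Cd14 was at 1074 to 1428 FPKM. As a share of the mean level in Tumor-macrophage, the rise was 1.17% for Apoe and 2.198% for Apoc2. Among the marker genes this share ran from 0.233% for Cx3cr1 to 32.7% for Cd14. It was between 0.331% and 0.531% for the complement genes C1qa, C1qb and C1qc, 4.58% for Ly6c2 and 6.78% for Ccr2. Of the C1q genes, C1qb was at 37.5, 35.6 and 69.9 FPKM in Tumor-AM, highest in the sample with the highest Apoe and Apoc2. C1qa, C1qc and Cd14 were also highest in that sample, Tumor-AM 3. Ccr2 was highest in Tumor-AM 1, at 5.83 FPKM against 3.63 in Tumor-AM 3. Ly6c2 was highest in Tumor-AM 2, at 8.20 FPKM against 7.75 in Tumor-AM 3. The 7 fibroblast markers summed to 3.72 to 6.74 FPKM in Ctrl-AM, against 12.98 to 85.7 in Tumor-AM and 9.84 to 17.1 in TAMs. Tumor-AM 3 was again the highest, and most of its sum was Lum, Dcn and Col3a1, at 35.1, 25.7 and 21.0 FPKM. Means of Col1a1 and Col1a2 were lower in Tumor-AM (0.558 and 0.292 FPKM) than in Ctrl-AM (0.579 and 0.556). Those of Pdgfra and Pdgfrb were higher in Tumor-AM (0.632 and 0.261 FPKM) than in Ctrl-AM (0.188 and 0.0229). Without Tumor-AM 3, Apoe still rose in Tumor-AM against Ctrl-AM (1.63, limma adjusted p = 0.014). The part of other cells in these results was not tested.

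Summed levels of lymphocyte and dendritic cell markers were also higher in the Tumor-macrophage samples. The 7 T and B cell genes in the files summed to 28.7 to 58.9 FPKM there and to 4.67 to 15.0 in AMs, and the 6 dendritic cell genes to 25.0 to 56.4 and 7.48 to 17.9. Against Tumor-AM, 5 of 6 tested T and B cell genes and 3 of 5 tested dendritic cell genes rose, compared with 24.2% of all genes. Most of the T and B cell sum in TAMs was Cd79a and Cd4, with means of 17.1 and 13.6 FPKM. Cd3e overlapped between TAMs (1.14 to 3.13 FPKM) and Tumor-AM (0.519 to 1.55), and the other T and B cell genes did not. Most of the dendritic cell sum in TAMs was Ccr7 and Cd209a, with means of 25.3 and 12.7 FPKM. Clec9a and Zbtb46 overlapped between TAMs and Tumor-AM, and Flt3 and Xcr1 did not. Tumor-macrophage 2 had the lowest Abca1, Apoe and Pltp of its group, and without it the calls of Abca1, Apoe, Apoc2, Pltp, Abcg1, Lpcat3 and Lrp1 in Tumor-macrophage against Tumor-AM were the same. The part of these cells in the TAM values was not tested.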

How the data were processed

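RNA was extracted from sorted macrophages, and the authors sequenced single-end reads of 75 bases from Nextera libraries of SMART-Seq HT cDNA. Their processing notes name TopHat2 2.1.1, Bowtie2 and Cuffdiff 2.2.1 with the genome build mm10, and the deposited values are FPKM per gene symbol, which the authors computed with the Cufflinks programs. The annotation and the handling of strand and shared reads are not given in the sources used here, so overlapping genes are uncertain. Values were log2-transformed after adding a pseudocount of 1. Genes with at least 1 FPKM in at least 3 of 9 samples were fitted with limma 3.58.1 (R 4.3.3) as group means over all 9 samples with an intensity trend, and two-sided p-values were adjusted over all 10686 genes. Errors are SE of the fit, or SD of 3 samples. The samples are from 3 mice per population. The p-values rest on the spread between samples within the 3 groups, which limma drew toward a trend over all genes tested. Symbols were matched to GENCODE vM21 (95.7%) for positions, shared sequence and depth: between 68.0% and 73.1% of ratios of low values lay on the grid of whole reads, so read numbers are approximate and cover counting error only. Promoter sequences are from RefSeq, and Abcg1 was not matched there. Deviations from the group means correlated at -0.062 to 0.16 between samples of the same number. These values do not settle whether Tumor-AM and Tumor-macrophage samples of the same number share a mouse, and the main fit did not pair them. All 10 genes are named, and other genes by list, with counts for every list and values for some of those that passed the test or complete a comparison. The genes and lists were chosen with earlier results of these data known. Apoc4, Apoc1, Cd5l, Soat1 and Tomm40 were singled out after their values were seen. Alternatives tried were 0.1 as pseudocount, no filter, a filter of 5 FPKM, quantile normalization, TPM, median-ratio scaling, a constant prior variance, the 2 compared groups alone, an added 2-fold threshold, a block by replicate number and the loss of each sample in turn. The fit was tested on simulated data. Plots used Python 3.11.15 and matplotlib 3.10.9. Values of some listed genes are not reported here.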

Additional observations from a re-analysis of the deposited data

How the results depend on the processing

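Of 540 changes of the 10 genes under alternatives, 499 kept their direction and their side of the threshold, 21 lost a call, 12 gained one and 8 changed sign. The number of the 10 genes called in Tumor-AM against Ctrl-AM, 2, was 1 with no filter, with a constant prior variance and with the replicate number as a block, 4 with quantile normalization and 4 on TPM, and 1 to 3 when 1 sample was left out. In the fit of both AM groups alone, Apoc2 lost its call and Abcg1 and Lpcat3 gained one. A filter of 5 FPKM added Abcg1. The replicate block cost the call of Apoc2 (limma adjusted p = 0.065) and that of Nr1h3 in Tumor-macrophage against Ctrl-AM (limma adjusted p = 0.069), and no other call of the 10 genes. In the other comparisons the counts, 7 and 8, stayed within 1.5 times under every alternative. With an added 2-fold threshold, the calls in Tumor-macrophage against Tumor-AM were 2 and not 5 among partners and corepressors, 6 and not 11 among further LXR targets and 4 and not 9 among storage and transport genes. Changes that reversed were small: with 1 sample left out, Nr1h2 ran from -0.16 to 0.017 and Nr1h3 from -0.032 to 0.18 in Tumor-macrophage against Tumor-AM, Mylip from -0.11 to 0.15 in Tumor-macrophage against Ctrl-AM, and Lrp1 from -0.080 to 0.073 in Tumor-AM against Ctrl-AM. Lrp1 in that comparison was -0.047 with quantile normalization and -0.13 on TPM. The rise of Apoe in Tumor-AM ran from 1.63 to 2.17 and passed under every alternative. The cause of the moves was not tested. With 3 samples a group, and about 16.1 reads of Apoc2 in the lowest library, changes of low genes are imprecise.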
